A study of Bos taurus with 12 samples.

Results

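The miR-99/100 and miR-125 clusters were followed in bovine granulosa cells through their 5 mature miRNAs, bta-miR-99a-5p, bta-miR-99b, bta-miR-100, bta-miR-125a and bta-miR-125b. They were chosen by name, as the main mature products of the 2 families, out of 755 mature miRNA names in the count tables. Where a mature miRNA was listed under several precursors, the entry with the most reads over the 12 libraries was used, which applied to bta-miR-125b alone, with 2 entries. The sequences of these miRNAs were not used here. Small RNA was sequenced from granulosa cells of subordinate follicles (SF, the smaller follicles) and dominant follicles (DF, the larger follicles). Cells were taken on day 3 and on day 7 of the oestrous cycle, with 3 libraries in each of the 4 groups. The paper proposes that follicles may not yet have reached dominant size at day 3. All heifers were Simmental, and all had their cycles synchronized with a prostaglandin analogue and a gonadotrophin-releasing hormone analogue. Different heifers were slaughtered on the 2 days. Follicles were classed by diameter, and the fluid with its granulosa cells was pooled by follicle size, so that 1 library may hold cells of several follicles. The paper counted far fewer DF than SF follicles on both days, and at day 7 no more DF follicles than libraries. SF libraries may thus hold many more follicles than DF libraries. The diameter limits of both classes were higher at day 7. SF follicles of day 7 could thus be larger than any SF follicle of day 3. Only those at the very upper limit of SF at day 7 would have been DF at day 3. The SF and DF follicles of a day came from the ovaries of the same group of heifers. Their libraries may thus share animals, which the main tests did not take into account. The labels tie the libraries to no named animal, so the p-values measure the spread between these libraries, part of which may be technical.

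As background, a miRNA is a short RNA that guides a silencing complex to messenger RNAs matching its seed, the bases near its 5′ end. miR-99a, miR-99b and miR-100 share a seed and are relatives of the miR-10 family, and their known targets include the growth kinase MTOR and the insulin-like growth factor receptor IGF1R. miR-125a and miR-125b are the vertebrate relatives of the worm timing RNA lin-4 and are known for roles in differentiation and apoptosis. In vertebrates the 2 families sit in the same clusters, each with a let-7 miRNA between them, and the members of a cluster can be cut from 1 primary transcript. Granulosa cells surround the oocyte, make oestradiol and line the follicle, and their number grows with the follicle.

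In the RefSeq annotation of the bovine assembly ARS-UCD2.0, used here for names and neighbours only, this layout was found 3 times. MIR99B, MIRLET7E and MIR125A followed each other in 1 cluster, MIR125B-2, MIRLET7C and MIR99A in another, and MIR125B-1, MIRLET7A-2 and MIR100 in the last. In each, 0 other annotated genes started between the outer members. The mature bta-miR-125b is made from 2 of the clusters, and its reads cannot be divided between them. The 2 listed entries of bta-miR-125b held nearly the same reads, the second 99.1% to 100% of the first in each library.

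The reads on known miRNAs ranged from 160418 to 405129 per library, with a median of 297448.5. The lowest total belonged to replicate 2 of DF at day 7. The gonadal miRNA bta-miR-202 was present in every library, at 2213 to 3673 normalized counts in 3 of the groups and at 364 to 976 in DF at day 7. A normalized count is the raw read count divided by the size factor of its library. Markers of other cell types moved in DF at day 7 as well. The 4 leukocyte miRNAs (bta-miR-142-3p, bta-miR-142-5p, bta-miR-150 and bta-miR-223) summed to 783, 3110 and 8636 normalized counts in replicates 3, 1 and 2 of DF at day 7, against 108 to 705 in the other libraries. By the 3 thresholds given below, all 4 were higher in DF at day 7 than in DF at day 3, and 3 of the 4 were higher in DF than in SF at day 7. Of these, 2 had few reads. For bta-miR-142-3p there were 10 reads in DF at day 7 and 0 in both groups of day 3, and for bta-miR-223 16 in DF at day 7 and 2 in DF at day 3. The theca and smooth muscle pair, bta-miR-143 and bta-miR-145, summed to 6723 to 14191 in DF at day 7 against 2206 to 4909 elsewhere. Both were higher in DF at day 7 than at day 3, and 1 of the 2 was higher in DF than in SF at day 7. The 3 erythrocyte miRNAs (bta-miR-144, bta-miR-451 and bta-miR-486) summed to 808 to 2322 in DF at day 7 and 315 to 1642 elsewhere. Both of the 2 that could be tested were higher in DF than in SF at day 7, while 0 of the 3 passed between the days in DF. The endothelial pair, bta-miR-126-3p and bta-miR-126-5p, summed to 130 to 160 in DF at day 7 and 61.6 to 221 elsewhere. Of the 2, 1 was higher in DF at day 7 than at day 3, and 0 passed between SF and DF at day 7. The 5 epithelial miRNAs (miR-200 and miR-141 family) summed to 0.855 to 3.33 in DF at day 7 and to at most 21.5 in any library. The part of these cells in the differences that involve DF at day 7 was not tested. In such bulk samples, fewer cells of a type and less of a miRNA per cell cannot be told apart.

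Together the 5 miRNAs took, at day 3, 12.9% ± 0.855 (SD, n = 3) of the reads in SF and 13.9% ± 1.09 in DF. At day 7 they took 9.22% ± 2.17 in SF and 5.73% ± 0.537 in DF. The DF libraries of day 7 lay below all others, at 5.13%, 5.88% and 6.17%. By mean normalized count over the 12 libraries, bta-miR-99b ranked 3 among all miRNAs, bta-miR-125a ranked 11, bta-miR-99a-5p 26, bta-miR-125b 27 and bta-miR-100 47. Ranks compare read counts, which also carry the preference of library preparation for some sequences.

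**Figure D1:**
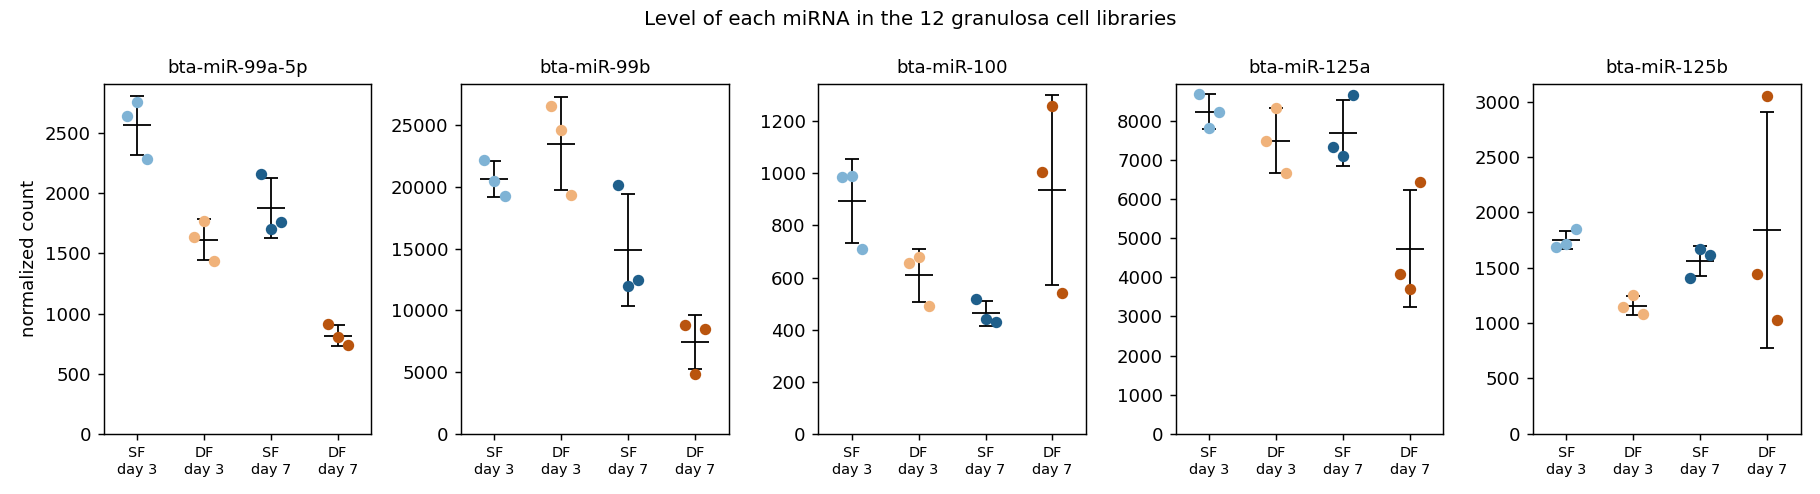
Normalized read count (linear axis from 0, with its own scale for each miRNA) of the 5 miRNAs in every library, by group, where points are single libraries and the black bars are the group mean ± SD (n = 3). The DF libraries of day 7 lie lowest for bta-miR-99b (4882 to 8839) and bta-miR-99a-5p (735.2 to 910), whereas for bta-miR-100 they spread from 539.1 to 1259.

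The cluster of bta-miR-99b and bta-miR-125a gave most of the reads of both families, and both members were lower in DF at day 7 than in DF at day 3. In replicates 1, 2 and 3, bta-miR-99b had 22157, 20455 and 19287 normalized counts in SF at day 3 and 26576, 24632 and 19344 in DF at day 3. At day 7 it had 20140, 12013 and 12497 in SF and 8839, 4882 and 8530 in DF. The SF and DF libraries overlapped at day 3, while at day 7 each DF library lay below each SF library. In order of its group means, bta-miR-99b stood at 23517 ± 3743 in DF and 20633 ± 1443 in SF at day 3, 14883 ± 4559 in SF and 7417 ± 2201 in DF at day 7 (SD, n = 3). The first 3 of these overlapped their neighbours in the order, and DF at day 7 stood apart.

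For bta-miR-125a, the normalized counts were 8682, 7807 and 8230 in SF at day 3, and 7499, 8336 and 6657 in DF at day 3. At day 7 they were 7325, 7107 and 8664 in SF and 4073, 3698 and 6437 in DF. The SF libraries of both days and the DF libraries of day 3 overlapped around a mean of 8240 ± 437, 7699 ± 843 and 7497 ± 839, respectively, and DF at day 7 lay below them at 4736 ± 1485. Replicate 3 of DF at day 7 came closest to the other groups.

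The let-7 member of this cluster, bta-let-7e, had closer group means. The let-7 miRNAs are known as brakes on proliferation. Its normalized counts averaged 949 ± 117 (SF) and 1001 ± 80.9 (DF) at day 3, then 851 ± 12.4 (SF) and 893 ± 366 (DF) at day 7. The number of bta-miR-99b reads for each bta-let-7e read was 18.3 to 27.1 in DF at day 3 and 6.74 to 10.1 in DF at day 7, without overlap. For bta-miR-125a, this ratio was 6.3 to 9.18 in DF at day 3 and 4.65 to 6.9 in DF at day 7, so that the libraries overlapped. These ratios to let-7 were not tested.

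In the cluster of bta-miR-99a and bta-let-7c, the highest level of bta-miR-99a-5p was in SF at day 3 and the lowest in DF at day 7. The normalized counts of bta-miR-99a-5p were 2647, 2757 and 2290 in SF and 1637, 1773 and 1435 in DF at day 3. They were 2163, 1702 and 1765 in SF and 910, 803.4 and 735.2 in DF at day 7. On both days every SF library lay above every DF library. The group means stood in the order 2565 ± 244 in SF at day 3, 1877 ± 250 in SF at day 7, 1615 ± 171 in DF at day 3 and 816 ± 88.1 in DF at day 7, and the middle pair of these groups overlapped. The bta-let-7c beside it was less variable, with 1234 ± 80.1 (SF) and 944 ± 32.1 (DF) at day 3, then 1125 ± 140 (SF) and 860 ± 117 (DF) at day 7.

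The levels of bta-miR-125b, which this cluster shares with that of bta-miR-100, had another order. At day 3 its normalized counts were 1688, 1718 and 1846 in SF and 1144, 1250 and 1081 in DF, without overlap. They were 1409, 1666 and 1612 in SF and 1440, 3049 and 1028 in DF at day 7. Replicate 2 of DF at day 7 was the highest of all 12 libraries and replicate 3 of the same group the lowest, so the mean of 1839 ± 1068 in DF at day 7 overlapped every other group. The means of the other groups were 1750 ± 84.0 in SF at day 3, 1562 ± 136 in SF at day 7 and 1158 ± 85.2 in DF at day 3, and these 3 did not overlap each other.

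The least abundant member, bta-miR-100, was highest in SF at day 3 and in DF at day 7. Its normalized counts were 984.2, 990.9 and 708.5 in SF and 656, 678.6 and 491.6 in DF at day 3. At day 7 they were 517.7, 439 and 428.8 in SF and 1006, 1259 and 539.1 in DF. At day 3 the SF libraries thus lay above the DF libraries, and at day 7 they lay below them. The means were 935 ± 365 in DF at day 7, 895 ± 161 in SF at day 3, 609 ± 102 in DF at day 3 and 462 ± 48.6 in SF at day 7, where the first pair overlapped each other and so did the last pair. The libraries of DF at day 7 also overlapped those of DF at day 3 for bta-miR-100. The let-7 member of its cluster, bta-let-7a-5p, which is also made from other loci, stayed between group means of 9559 ± 668 and 11269 ± 478.

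Within DF at day 7, the order of the libraries for bta-miR-100 and bta-miR-125b was that of the leukocyte markers and of the erythrocyte markers, and the reverse of that of the theca markers and of bta-miR-202. Replicate 3, with 783 normalized counts of the leukocyte markers, had 539.1 of bta-miR-100 and 1028 of bta-miR-125b. Replicate 1, with 3110 of these markers, had 1006 and 1440, and replicate 2, with 8636, had 1259 and 3049. For replicates 3, 1 and 2, the erythrocyte markers summed to 808, 1296 and 2322, the theca markers to 14191, 9892 and 6723, and bta-miR-202 stood at 976, 753 and 364. In the same replicates bta-miR-125a stood at 6437, 4073 and 3698, the order of the theca markers and of bta-miR-202. The endothelial pair, at 160, 130 and 145, followed neither order, and nor did bta-miR-99a-5p or bta-miR-99b. An order of 3 libraries does not tell the marker lists apart, and their part in the levels was not tested.

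The first comparison asked how granulosa cells of SF and DF differed at day 3, early in the growth of the follicle wave. Between SF and DF at day 3, bta-miR-99a-5p, bta-miR-125b and bta-miR-100 were higher in SF by less than 2 fold. To be called changed, a miRNA had to pass 3 thresholds in the quasi-likelihood test of edgeR, a log2 fold change of 1 or more in size, a p of 0.05 or less and a Benjamini-Hochberg false discovery rate, taken over all miRNAs tested, of 10% or less. By these 3 thresholds 0 of the 5 were called, by edgeR and by DESeq2, and 5.67% of the 335 miRNAs tested were. With the false discovery rate alone 3 of the 5 passed, against 16.7% of all tested, with 8.66% passing as higher in SF, and 3 of the 5 had an unadjusted p of at most 0.05 (24.8%). The libraries of SF and DF did not overlap for 3 of the 5, compared with 27.8% of all miRNAs. The log2 fold change of SF over DF was 0.62 for bta-miR-99a-5p (SE 0.13, adjusted p = 0.0016 in edgeR), 0.55 for bta-miR-125b (SE 0.13, adjusted p = 0.00425) and 0.51 for bta-miR-100 (SE 0.16, adjusted p = 0.0349). For the pair of the bta-miR-99b cluster it was -0.23 (95% interval -0.471 to 0.00223, adjusted p = 0.203 in edgeR) and, for bta-miR-125a, 0.09 (interval -0.142 to 0.324, adjusted p = 0.709). The value of bta-miR-125a turned to -0.099 with upper-quartile normalization. With all 12 libraries in one fit, the number past the false discovery rate fell from 3 to 1.

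At day 7, the comparison of SF and DF was repeated later in the cycle, and 4 of the 5 passed the false discovery rate, 3 higher in SF and bta-miR-100 lower. By the 3 thresholds 2 of the 5, bta-miR-99a-5p and bta-miR-99b, were called, against 33.4% of the 350 miRNAs tested. By the false discovery rate alone 4 of the 5 passed, against 39.7% of all (19.4% higher in SF and 20.3% lower), and the libraries did not overlap for 4 of the 5, against 45.7%. SF exceeded DF by 2.42 fold in bta-miR-99a-5p (log2 1.27, SE 0.21, adjusted p = 0.00112 in edgeR), by 2.12 fold in bta-miR-99b (log2 1.09, SE 0.28, adjusted p = 0.0134) and by 1.72 fold in bta-miR-125a (log2 0.78, SE 0.23, adjusted p = 0.0267). In bta-miR-100, SF was 1.94 fold below DF (log2 -0.95, SE 0.32, adjusted p = 0.0425 in edgeR). For bta-miR-125b the log2 difference was -0.18 with an interval from -1.01 to 0.652, which does not exclude a 1.5-fold difference in either direction.

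These day 7 values rested in part on single libraries. Without replicate 2 of DF at day 7, which had the most leukocyte reads, only bta-miR-99a-5p was called among the 5 (log2 1.27, adjusted p = 0.00768 in edgeR). Over all miRNAs, 116 of the 341 tested were called there. The values of the other members were then 0.858 for bta-miR-99b (adjusted p = 0.0615 in edgeR), 0.635 for bta-miR-125a (adjusted p = 0.089) and -0.664 for bta-miR-100 (adjusted p = 0.14), while bta-miR-125b turned to 0.42. Without replicate 3 of DF at day 7, 4 of the 5 were called, bta-miR-100 at -1.24 and bta-miR-125a at 1.03 in addition. Over all miRNAs, 119 of the 335 tested were called in that setting. Without replicate 1 of SF at day 7, bta-miR-99b fell below the fold threshold, at 0.823, and bta-miR-100 passed it, at -1.03. The log2 difference of bta-miR-99b was likewise under 1, at 0.951, with library size alone as the scaling.

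**Figure D2:**
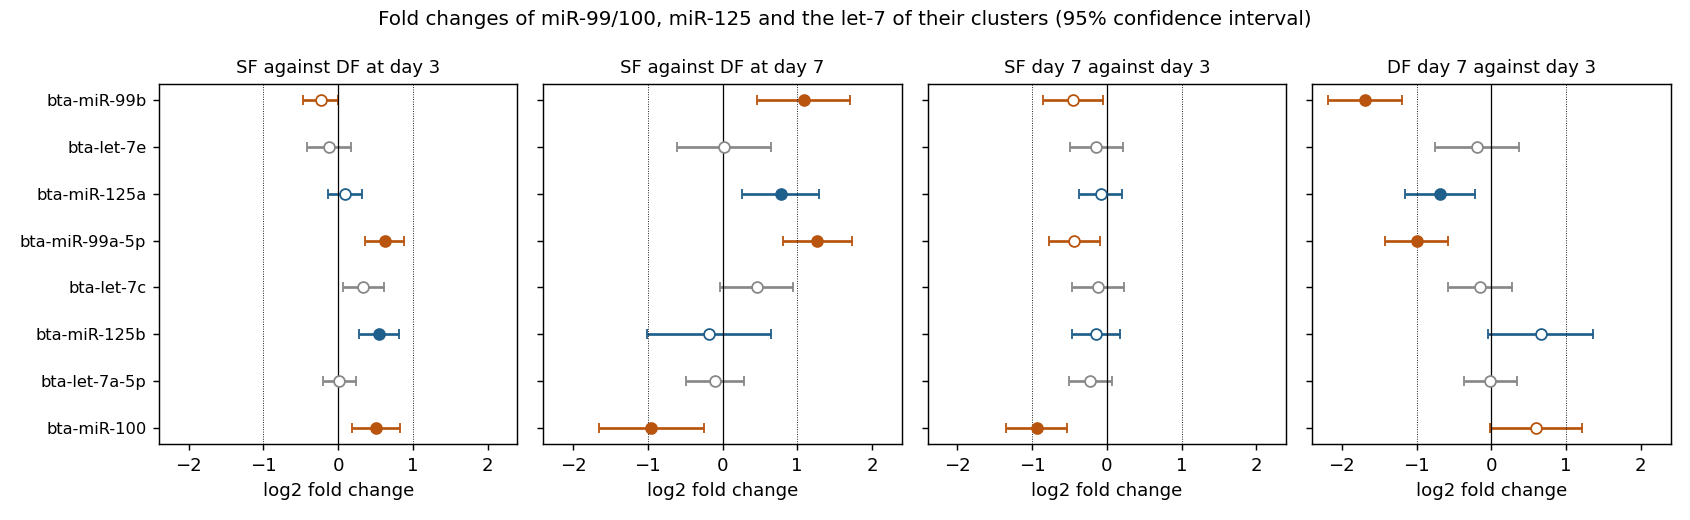
Log2 fold change of the 5 miRNAs and of the let-7 miRNAs of their clusters in the 4 comparisons, with bars for the 95% interval, filled points where the false discovery rate was passed and dotted lines at the fold threshold. The bta-miR-99a-5p and bta-miR-99b points lie at 1.27 and 1.09 for SF over DF at day 7, that of bta-miR-100 at -0.95.

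Between the 2 days in DF, bta-miR-99b and bta-miR-99a-5p fell, by 3.23 and 2.01 fold. By the 3 thresholds 2 of the 5 were called, where 40.3% of the 360 miRNAs tested were, so the count of members stood no higher than that of miRNAs at large. The log2 changes from day 3 to day 7 were -1.69 for bta-miR-99b (SE 0.23, adjusted p = 3.37e-05 in edgeR), -1.0 for bta-miR-99a-5p (SE 0.20, adjusted p = 0.000838) and -0.68 for bta-miR-125a (SE 0.22, adjusted p = 0.0239). These 3 passed the false discovery rate, against 47.2% of all tested (20.8% lower at day 7), and their libraries did not overlap, against 50%. For bta-miR-100 the change was 0.60 (interval -0.0106 to 1.22, adjusted p = 0.111 in edgeR) and for bta-miR-125b 0.66 (interval -0.0396 to 1.36, adjusted p = 0.124). Without replicate 2 of DF at day 7 the value of bta-miR-125b was 0.063 and that of bta-miR-100 was 0.313, whereas bta-miR-99b stayed at -1.47 and bta-miR-99a-5p at -1.0. The change of bta-miR-99a-5p lay at the fold threshold itself and was just short of it in 4 alternatives, at -0.921 without replicate 3 of DF at day 7 and -0.966 without replicate 2 of DF at day 3. Without replicate 3 of DF at day 7, all 5 passed the false discovery rate. The share of all miRNAs past that rate in this setting is not given here. By the 3 thresholds, 146 of the 348 miRNAs tested were called there, against 145 of 360 with all 6 libraries.

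In SF between the 2 days, 0 of the 5 were called, by edgeR and by DESeq2 as run here, against 0.593% of the 337 miRNAs tested in edgeR. The paper, which also used DESeq2, did list bta-miR-100 as downregulated in SF at day 7. By the false discovery rate alone bta-miR-100 passed, 1 of the 5 against 0.89% of all, with a fall of 1.92 fold (log2 -0.94, SE 0.19, adjusted p = 0.0377 in edgeR). An unadjusted p of at most 0.05 was reached by 3 of the 5, against 11%, and 3 of the 5 had libraries that did not overlap, against 13.9%. The changes were -0.44 for bta-miR-99a-5p (adjusted p = 0.263 in edgeR), -0.45 for bta-miR-99b (adjusted p = 0.368), -0.08 for bta-miR-125a and -0.15 for bta-miR-125b. Leaving out replicate 3 of SF at day 3 or replicate 1 of SF at day 7 took bta-miR-100 past the fold threshold, at -1.09 and -1.05. Without replicate 1 of SF at day 7, 3 of the 5 passed the false discovery rate, and without replicate 1 or 2 of SF at day 3, or replicate 2 of SF at day 7, 0 did. Calls over all miRNAs by the 3 thresholds moved as well. They numbered 20 of 317 without replicate 1 of SF at day 7, against 2 of 337 in the main fit. In the other settings just named they numbered 0.

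Whether the difference of SF and DF changed between the days was tested as an interaction over the 12 libraries, as the value at day 7 minus that at day 3 in 1 fit of all groups, whose differences on each day are not exactly those of the separate fits above. It was called for 2 of the 5, against 26.5% of the 378 miRNAs tested, and the false discovery rate alone passed the same count, against 29.1%. For bta-miR-100 the interaction was -1.57 on the log2 scale (SE 0.37, adjusted p = 0.00389 in edgeR), from a difference of 0.555 at day 3 to one of -1.01 at day 7 in the same fit. For bta-miR-99b it was 1.19 (SE 0.32, adjusted p = 0.00999), from -0.189 to 1.0. The values of bta-miR-99a-5p, 0.53 (interval 0.0367 to 1.03, adjusted p = 0.121), bta-miR-125a, 0.56 (interval 0.000778 to 1.13, adjusted p = 0.151), and bta-miR-125b, -0.83 (interval -1.66 to 0.00104, adjusted p = 0.151), did not pass in edgeR. Without replicate 2 of DF at day 7, the interaction was still called for bta-miR-100 (-1.27, adjusted p = 0.0195) and bta-miR-99b (1.0, adjusted p = 0.0234). Without replicate 1 of SF at day 7 it was 0.905 for bta-miR-99b and no longer past the fold threshold, and without replicate 3 of DF at day 7 bta-miR-125b was called as well, at -1.12. The comparisons share libraries with each other and with the interaction, so they are not independent of one another.

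None of the 3 let-7 miRNAs of the clusters passed the false discovery rate in any of the 4 comparisons or in the interaction, in edgeR or in DESeq2. The lowest adjusted p in edgeR was that of bta-let-7c in SF against DF at day 3, at 0.102 with a log2 fold change of 0.34, the 1 of these tests with an unadjusted p of at most 0.05, and its libraries did not overlap there or at day 7, where the value was 0.46 (adjusted p = 0.139). The day 7 against day 3 values in DF were -0.15 for bta-let-7c, -0.19 for bta-let-7e and -0.01 for bta-let-7a-5p. The let-7 miRNAs differ from each other by few bases, and reads of one may be counted at another.

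The ratio of a pair of miRNAs in the same library does not depend on how libraries are scaled to each other. Of 24 tests, 6 ratios among the 5 miRNAs in 4 comparisons, 12 had groups that did not overlap and reached 0.10, the smallest p that an exact permutation test (two-sided) of 3 against 3 libraries allows, and the lowest adjusted p was 0.2. No ratio could therefore pass a threshold of 0.05 in this test. Groups did not overlap for 3 of the 6 ratios in SF against DF at day 3, 3 at day 7, 4 in DF between days and 2 in SF between days. Among the 8646 ratios that 132 miRNAs with a mean of at least 50 normalized counts can form, the shares were 41.8%, 69.0%, 77.2% and 19.9% in the same order, so that ratios which differed between the groups were common in these libraries. The ratio of bta-miR-100 to bta-miR-99a-5p was 0.309 to 0.372 in SF and 0.343 to 0.401 in DF at day 3. At day 7 it was 0.239 to 0.258 in SF and 0.733 to 1.57 in DF, a difference of 4.39 fold between the mean log2 ratios. In replicates 1 and 2 of DF at day 7, at 1.11 and 1.57, bta-miR-100 had more reads than bta-miR-99a-5p, which was the case in no other library. These 2 miRNAs are nearly identical in sequence, and how many reads of the one were counted at the other was not tested.

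Ratios of members that lie in 1 cluster were of both kinds, overlapping and not, with the reads of bta-miR-125b again undivided between its 2 clusters. The ratio of bta-miR-99b to bta-miR-125a was 2.91 to 3.54 in DF at day 3 and 1.32 to 2.17 in DF at day 7, 2.0 fold apart in the mean, while it was 2.34 to 2.62 in SF at day 3 and 1.44 to 2.75 in SF at day 7. The ratio of bta-miR-99a-5p to bta-miR-125b was 1.24 to 1.61 in SF and 1.33 to 1.43 in DF at day 3, with overlap. At day 7 it was 1.02 to 1.54 in SF and 0.264 to 0.715 in DF. For bta-miR-100 to bta-miR-125b, the ratio was 0.455 to 0.573 in DF at day 3 and 0.413 to 0.698 in DF at day 7, with overlap, and 0.264 to 0.367 in SF at day 7, below both.

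**Figure D3:**
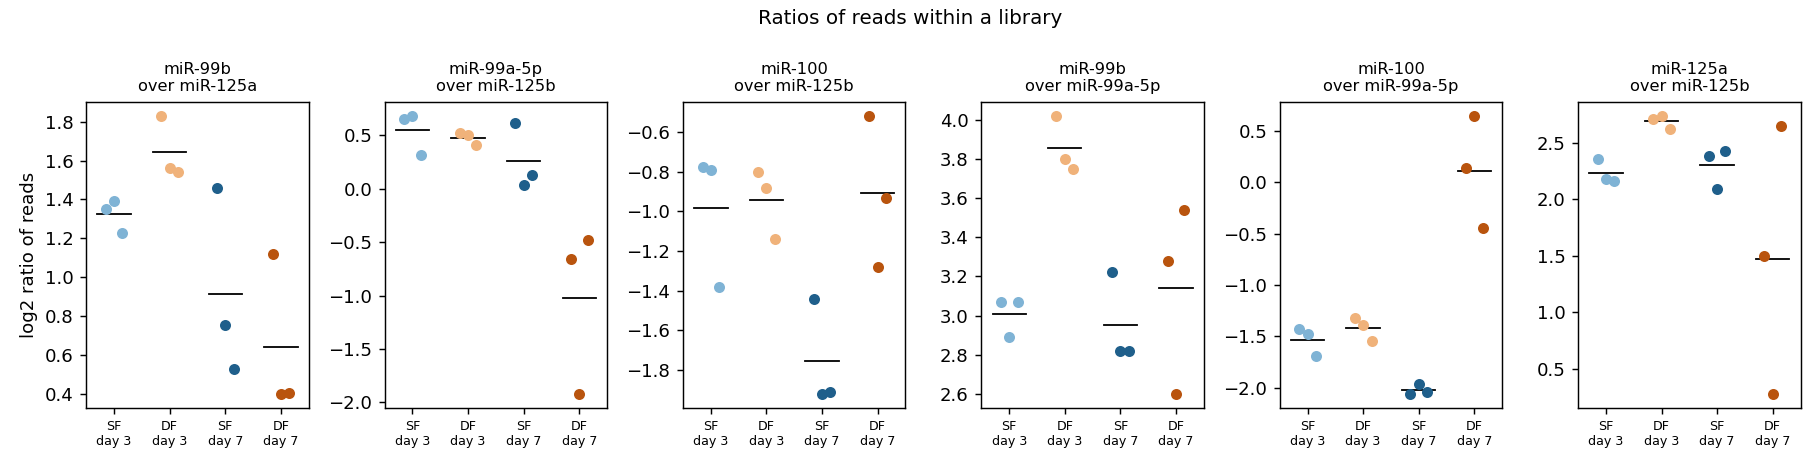
Log2 ratio of the reads of a pair of the miRNAs in each library, by group, with points for libraries and lines for the group mean. On the linear scale, the ratio of bta-miR-100 to bta-miR-99a-5p in DF at day 7, 0.733 to 1.57, lies above all other groups, and that of bta-miR-99a-5p to bta-miR-125b, 0.264 to 0.715, below them.

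Because members of a family share a seed, the make-up of each family was also followed. Of the miR-99/100 family, bta-miR-99b held, at day 3, 85.7% ± 1.04 of the reads in SF and 91.3% ± 0.641 in DF. At day 7 it held 86.1% ± 1.90 in SF and 79.8% ± 8.60 in DF (SD, n = 3). The share of bta-miR-100 was 3.70% ± 0.469 in SF of day 3 and 2.76% ± 0.438 in SF of day 7, and in DF at day 3 it was 2.272%, 2.505% and 2.311% in replicates 1, 2 and 3. In DF at day 7 it was 9.352%, 18.13% and 5.498% in replicates 1, 2 and 3, above every library of the other groups. The sum of the family was, at day 3, 24092 ± 1754 normalized counts in SF and 25741 ± 3974 in DF. At day 7 it was 17222 ± 4856 in SF and 9168 ± 1983 in DF.

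Of the miR-125 family, bta-miR-125a held 82.5% ± 1.11 (SF) and 86.6% ± 0.490 (DF) at day 3, then 83.1% ± 1.79 (SF) and 71.6% ± 15.8 (DF) at day 7. The spread in the last group came from replicate 2, in which the ratio of bta-miR-125a to bta-miR-125b was 1.21, and replicate 3, in which it was 6.26. The sum of the family was 9990 ± 429 (SF) and 8655 ± 924 (DF) at day 3, then 9261 ± 880 (SF) and 6575 ± 987 (DF) at day 7.

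**Figure D4:**
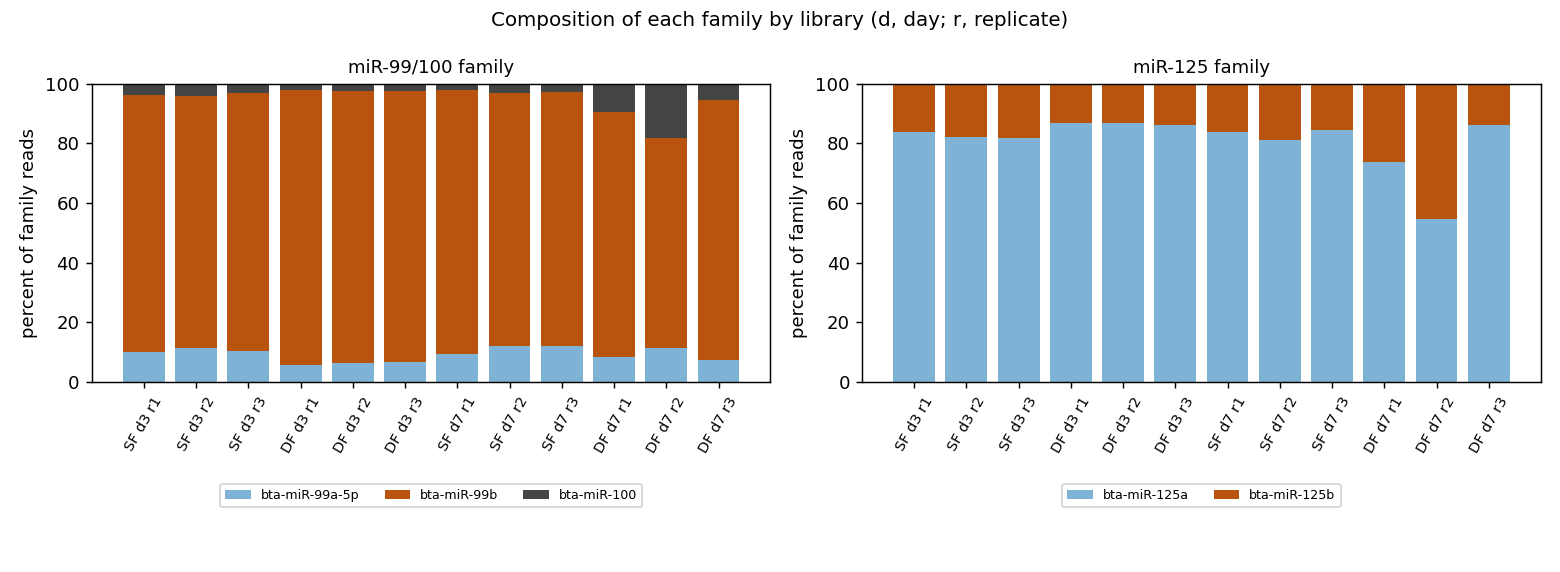
Share of each member in the reads of its family (percent), as stacked bars for each of the 12 libraries (d, day and r, replicate). The dark grey part, bta-miR-100, is widest in replicate 2 of DF at day 7, at 18.13%, the library in which bta-miR-125b also takes its largest part of the miR-125 family.

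The wider miR-10 superfamily, to which the miR-99/100 family belongs, was represented by bta-miR-10a and bta-miR-10b, which lie in Hox gene clusters. Of these, bta-miR-10b was called in 3 of the 5 tests. It was higher in SF than in DF at day 7 (log2 2.04, adjusted p = 6.09e-05 in edgeR), lower in DF at day 7 than at day 3 (log2 -1.18, adjusted p = 0.000239) and had an interaction of 1.70 (adjusted p = 4.11e-05). Its means were 41920 ± 2562 (SF) and 34696 ± 8655 (DF) at day 3, then 60821 ± 10730 (SF) and 15491 ± 745 (DF) at day 7. The less abundant bta-miR-10a passed the false discovery rate in SF against DF at day 7 only (log2 0.83, adjusted p = 0.0402 in edgeR).

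The miRNAs with the most similar course over the 12 libraries differed among the 5. Likeness was taken as the root mean square difference of log2(normalized count + 1), each miRNA centred on its own mean, over 127 miRNAs with a mean of at least 50 normalized counts other than the 5. For bta-miR-99a-5p the nearest were bta-miR-30c (0.174), bta-miR-30e-5p (0.240) and bta-miR-339a (0.265), with a median of 0.698 over all. For bta-miR-99b they were bta-miR-148b (0.210), bta-miR-450b (0.225) and bta-miR-769 (0.280), with a median of 0.787. For bta-miR-125a they were bta-miR-192 (0.165), bta-miR-25 (0.165) and bta-miR-17-5p (0.198), with a median of 0.517. The nearest to bta-miR-100 were bta-let-7b (0.391), bta-miR-215 (0.403) and bta-let-7a-5p (0.458), with a median of 0.807, and those to bta-miR-125b were bta-miR-342 (0.253), bta-miR-26b (0.384) and bta-miR-2284x (0.388), with a median of 0.730. On the same scale, a constant level would lie at a distance of 0.617 from bta-miR-99a-5p, 0.719 from bta-miR-99b, 0.501 from bta-miR-100, 0.388 from bta-miR-125a and 0.407 from bta-miR-125b. The neighbours of bta-miR-100 and all but the first of bta-miR-125b were thus little nearer than a constant.

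Measured the same way among the 5, the shortest distances were 0.391 between bta-miR-99a-5p and bta-miR-125a, 0.429 between bta-miR-99a-5p and bta-miR-99b, 0.468 between bta-miR-99b and bta-miR-125a and 0.431 between bta-miR-100 and bta-miR-125b. Of these, those to bta-miR-125a and to bta-miR-125b are no shorter than the distance of a constant from them. The others were 0.660 between bta-miR-125a and bta-miR-125b, 0.730 between bta-miR-99a-5p and bta-miR-125b, 0.772 between bta-miR-100 and bta-miR-125a, 0.833 between bta-miR-99a-5p and bta-miR-100, 0.970 between bta-miR-99b and bta-miR-100 and 0.980 between bta-miR-99b and bta-miR-125b. The distances describe these 12 libraries, which share their size factors, and were not tested.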

How the data were processed

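Per the study's methods, the authors processed reads with CASAVA 1.8.0, checked them with FastQC, removed adapters with cutadapt, mapped what was left to the bovine genome and counted known miRBase miRNAs with miRDeep2. The deposited values are raw read counts per pair of mature miRNA and precursor, without normalization. The mismatches allowed are not given in the sources used here. Groups and replicate numbers came from the labels. The members and lists were chosen with earlier results of these data known. Named miRNAs were the 5 members, the 3 let-7 miRNAs of their clusters, the other arm of a member, bta-miR-10a and bta-miR-10b, the 3 miRNAs nearest in course to each member, and marker miRNAs of other cell types.

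Counts were fitted in R 4.3.3 with edgeR 4.0.16 (glmQLFit and glmQLFTest, two-sided, RLE factors, the default prior count) on the 6 libraries of a comparison, or on 12 for the interaction, over miRNAs seen, with 1 read or more, in 2 or more of the 3 replicates of a group. P-values were adjusted by Benjamini-Hochberg over all miRNAs tested. The standard error is the log2 fold change divided by the square root of F, an approximation. Normalized counts used median-of-ratios factors over 12 libraries. Ratios were tested in SciPy 1.17.1, and 0.5 reads were added to every count for the ratios of all pairs of miRNAs. The code was tested on simulated data.

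The share that a count of 0 still allows, taken as 3 reads, was 0.000741% to 0.00187% of a library, a limit set by counting error alone, as PCR copies were not told apart.

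Replicate numbers are tied to no animal. Deviations from the group means correlated between same-numbered SF and DF libraries of day 7 at 0.13, 0.16 and 0.18 over 186 miRNAs. At day 3 the values were -0.14, -0.094 and -0.027. Between the days, where the heifers differed, the value of replicate 3 in SF was 0.11, so such values do not establish a pairing. No pairing was used in the main fits, and a replicate block was an alternative in every comparison.

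Alternatives were DESeq2 1.42.0, TMM, upper-quartile and library size scaling, no filter and a filter of 10 reads in 3 samples. Others were 12 libraries in one fit, counts summed over the precursors of a miRNA, all entries as listed, the replicate block and a prior count of 2. A false discovery rate of 5% and leaving out each library were also used.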

Additional observations from a re-analysis of the deposited data

Results flagged for a closer look

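The difference between SF and DF changed between day 3 and day 7 by the test of the interaction for 2 of the 5 miRNAs, against 26.5% of the 378 miRNAs tested. The interaction was 1.19 for bta-miR-99b and -1.57 for bta-miR-100, on the log2 scale.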

How the results depend on the processing

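Of 475 values of single members under the alternatives, 453 kept their direction and their side of the threshold, 8 lost and 11 gained the call, and 3 reversed. The reversals were bta-miR-125a in SF against DF at day 3 with upper-quartile normalization (-0.099) and bta-miR-125b in SF against DF at day 7 with all entries as listed (0.0258) and without replicate 2 of DF (0.42, where leaving out other libraries gave values down to -0.479). The cause was not tested for these or for the moves below.

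Members called numbered 2 in SF against DF at day 7 (1 to 4 without single libraries), 2 in the interaction (1 to 3), 2 in DF between days (1 to 2, and 1 with at least 10 reads in at least 3 samples or with all 12 libraries in one fit) and 0 in SF between days (0 to 1, and 1 with library size alone). Members past the false discovery rate were 3 in SF against DF at day 3 (1 with all 12 libraries in one fit, 2 to 3 without single libraries), 4 at day 7 (2 to 4 without single libraries), 3 in DF between days (5 with no filter or with all 12 libraries in one fit, 2 to 5 without single libraries), 1 in SF between days (2 with no filter, 0 with at least 10 reads or with all 12 libraries in one fit, 0 to 3 without single libraries) and 2 in the interaction (4 with upper-quartile normalization, 2 to 4 without single libraries).

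Over all miRNAs, calls in SF against DF at day 3 went from 19 to 11 with DESeq2, 12 with at least 10 reads, 8 with all 12 libraries and 10 to 21 without single libraries. In DF between days they went from 145 to 92 with at least 10 reads and to 122 to 146 without single libraries. Without single libraries they were 100 to 120 in SF against DF at day 7 and 90 to 106 in the interaction. In SF between days they went from 2 to 5 with DESeq2, 9 with upper-quartile normalization, 12 with no filter, 0 with at least 10 reads, 1 with all 12 libraries, 10 with all entries as listed and 0 to 20 without single libraries.

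With the replicate block, SF between days gave 2 members past the false discovery rate and 7 miRNAs called. The block changed no call of a member by the 3 thresholds in any comparison, and in SF against DF at day 7 it left 2 of the 5 called.

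Upper-quartile normalization moved the median log2 fold change of all miRNAs from -0.0413 to -0.224 in SF against DF at day 3, from 0.0543 to -0.25 in DF between days and from 0.0216 to 0.233 in the interaction, and library size alone moved it from -0.0538 to -0.199 in SF against DF at day 7, from 0.0543 to -0.0851 in DF between days and from 0.0299 to -0.112 in SF between days. The share of higher calls went from 68.4% to 52.6% at day 3 and from 60.7% to 48.3% in DF between days with upper-quartile normalization, and in SF between days from 1 of 2 calls to 8 of 9.

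Of 168 ratio differences, taken without single libraries or with counts summed over precursors, 7 reversed, all of them ratios whose groups overlapped. The ratio of bta-miR-100 to bta-miR-125b became 0.154 and 0.0244 for SF against DF at day 3 (range -0.147 to 0.154) and -0.163 and -0.0664 for DF between days (range -0.163 to 0.216), and that of bta-miR-99b to bta-miR-99a-5p became 0.0125 for SF against DF at day 7 (range -0.454 to 0.0125) and 0.0114 and 0.00898 for SF between days (range -0.189 to 0.0114).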

Other observations

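Of the opposite arms of the 5 miRNAs, bta-miR-99a-3p was listed with reads in every group. This arm is usually discarded when the duplex is loaded. Its reads were 15 (SF) and 23 (DF) at day 3, then 30 (SF) and 26 (DF) at day 7, beside 6892, 6548, 5921 and 2364 reads of bta-miR-99a-5p. Its share of the reads of both arms was 0.224% ± 0.139 (SD, n = 3) (SF) and 0.357% ± 0.0449 (DF) at day 3, then 0.534% ± 0.240 (SF) and 1.06% ± 0.226 (DF) at day 7. The DF libraries of day 7, at 0.85% to 1.3%, lay above all others. By its own level, bta-miR-99a-3p passed in none of the comparisons, and from day 3 to day 7 in DF the log2 change was 0.60 (adjusted p = 0.368 in edgeR) where bta-miR-99a-5p fell by 1.0. The difference between the 2 arms was not tested.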
